A study of Arabidopsis thaliana with 12 samples.

Results

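The 10 genes described here are starch degradation genes of Arabidopsis thaliana, with BAM5, a β-amylase outside the chloroplast, among them. They are BAM1 (AT3G23920), BAM3 (AT4G17090), BAM5 (AT4G15210), SEX1 (AT1G10760), PWD (AT5G26570), SEX4 (AT3G52180), LSF1 (AT3G01510), DPE1 (AT5G64860), DPE2 (AT2G40840) and MEX1 (AT5G17520), taken by locus identifier from 19710 genes measured in at least one of the 2 comparisons of the study. The prefoldin mutants pfd4 and 6x_pfd were each compared with wild type (WT) of the same experiment. Prefoldin is a cytosolic chaperone complex that delivers unfolded tubulin and actin to the chaperonin CCT, and the comparisons ask which transcripts differ when it is impaired.

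The 12 samples, 3 in each of 4 groups, were whole Col-0 seedlings. The pfd4 seedlings and their WT grew in vitro for 14 days in LD, which usually stands for long days, and carry the time ZT1, where ZT usually counts hours from lights on. The sample titles of this experiment carry the word mock, and no treatment is described. The 6x_pfd seedlings and their WT grew in vitro for 7 days in LL, which usually stands for continuous light. The labels name no alleles and do not say whether seedlings were pooled. The genotypes were checked on the prefoldin transcripts: PFD4 had a log2 fold change of -1.99 ± 0.17 in pfd4, per the authors' deposited table, and 5 of the 6 prefoldin genes fell in 6x_pfd, with PFD6 at -0.16 ± 0.10 and not past the threshold. A value after ± is the standard error (SE) of a log2 fold change of mutant over WT, with 3 libraries in each group. The tables give a mean over the libraries of a comparison, so values and depth per library were not analysed here, and the spread between replicates enters through the SE. Mean normalized counts summed to 29221246 in the pfd4 table and 32374115 in the 6x_pfd table, with a median SE of 0.126 and 0.121.

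Leaves store part of the carbon they fix by day as starch granules in the chloroplast and degrade them at night. Degradation starts when the glucan water dikinase SEX1 and then the phosphoglucan water dikinase PWD phosphorylate the granule surface, which opens it to β-amylases such as BAM1 and BAM3, while the phosphatases SEX4 and LSF2 remove the phosphate again. The maltose made by β-amylases leaves the chloroplast through the transporter MEX1 and is used by the glucosyltransferase DPE2 in the cytosol, and short glucans left behind are recycled by the disproportionating enzyme DPE1. Transcripts of many of these genes follow a daily rhythm under the circadian clock.

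In 6x_pfd seedlings, starch degradation transcripts were higher than in WT at each step of this route, from granule phosphorylation to maltose use. Of the 10 genes, 9 rose, at an adjusted p below 0.05 (DESeq2 with Benjamini-Hochberg adjustment), per the authors' deposited table, and the remaining gene, BAM3, lay above 0 without passing. Of all genes tested in that comparison, 33.6% were called, 16.9% higher and 16.8% lower, so that 50.2% of the calls were higher. That share was 66.1% after centring on equal group totals, the sums of group means over all genes measured. All 10 genes had an unadjusted p below 0.05, as did 41.2% of all genes, and BAM1, BAM5 and SEX4 rose by at least 1 on the log2 scale (2 of 9 genes without BAM5), as did 3.79% of all genes. The median log2 fold change of the 10 genes was 0.76, from 0.38 to 1.70, against 0.00 over all genes, and without BAM5, whose entry into the table is described below, it was 0.70 with 8 of 9 genes called. In pfd4 none of the 9 genes measured was called, where 7.75% of all genes tested were (3.94% higher and 3.81% lower), and their median was 0.04, from -0.10 to 0.39. In whole seedlings, more cells of a type and more RNA per cell cannot be told apart.

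**Figure D1:**
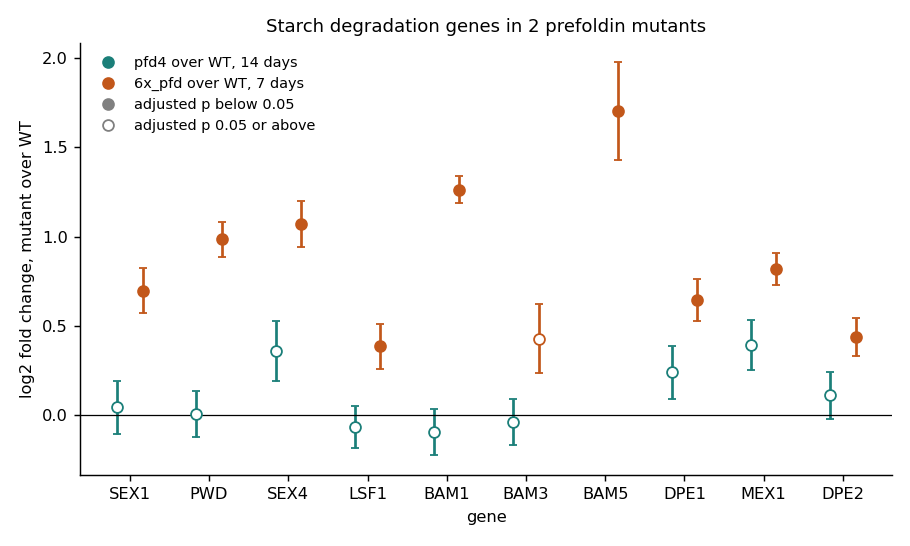
Log2 fold change, mutant over WT, of each starch degradation gene in pfd4 at 14 days and 6x_pfd at 7 days; points are the authors' estimates from 3 libraries per group, bars are 1 SE, and filled points passed an adjusted p of 0.05. The 10 points for 6x_pfd lie between 0.38 and 1.70 and those for pfd4 between -0.10 and 0.39, with none for BAM5 in pfd4.

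Transcripts of the glucan phosphorylating enzymes rose together in 6x_pfd. SEX1, which starts the phosphorylation of the granule, rose by 0.70 ± 0.13 (adjusted p = 4.7e-07), per the authors' deposited table, from an implied mean of 6445 normalized counts in WT to 10434 in 6x_pfd. The group means are implied by the deposited mean and fold change for groups of equal size. PWD, which adds phosphate to glucans already phosphorylated by SEX1, rose by 0.98 ± 0.10 (adjusted p = 5.3e-22), per the authors' deposited table, a 1.98-fold change with a 95% interval from 1.73 to 2.26. In pfd4, SEX1 was at 0.04 ± 0.15 and PWD at 0.00 ± 0.13, per the authors' deposited table, with 95% intervals of -0.25 to 0.33 and -0.25 to 0.25, so changes as large as those of 6x_pfd lie outside them. GWD2 (AT4G24450), a cytosolic relative of SEX1, was the one gene of the wider degradation list to pass in both mutants, at 0.74 ± 0.16 in pfd4 (adjusted p = 2.9e-04) and 1.06 ± 0.13 in 6x_pfd (adjusted p = 8.9e-14), per the authors' deposited tables. The difference between those GWD2 values, 0.32 with a 95% interval of -0.09 to 0.73, did not pass (adjusted p = 0.289).

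The phosphatase gene SEX4, whose loss gives plants with excess starch, rose in 6x_pfd by 1.07 ± 0.13 (adjusted p = 3.0e-15), per the authors' deposited table. Its implied level went from 997 normalized counts in WT to 2091 in 6x_pfd. LSF1, a catalytically inactive relative of SEX4 that binds β-amylases at the granule, rose by 0.38 ± 0.13 (adjusted p = 0.00938), per the authors' deposited table. LSF1 shares part of its annotated span with CA1 (AT3G01500), a carbonic anhydrase gene on the same strand with a mean of 110292 normalized counts in that table against 703 for LSF1. CA1 was at 0.30 ± 0.17 (adjusted p = 0.163), per the authors' deposited table, and the sources used here do not say how reads in shared sequence were treated, so the value of LSF1 is uncertain. The active relative LSF2 rose by 0.63 ± 0.12 (adjusted p = 3.1e-06), per the authors' deposited table. In pfd4, SEX4 was at 0.36 ± 0.17 (unadjusted p = 0.0337, adjusted p = 0.207), LSF1 at -0.07 ± 0.12 and LSF2 at 0.30 ± 0.11 (adjusted p = 0.0794), per the authors' deposited table.

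The β-amylases, which cut maltose from glucan chains, differed among themselves. BAM1, a chloroplast enzyme known for its part in guard cells and under osmotic stress, had the smallest p of the 10 genes in 6x_pfd, at 1.26 ± 0.08 (adjusted p = 8.3e-59), per the authors' deposited table. Its implied level rose from 3346 to 8025 normalized counts, a 2.40-fold change, and its fold change was above that of 97.1% of all genes in the table. BAM3, the main β-amylase of leaf starch breakdown at night, was the most abundant of the 10 transcripts per kilobase in each group. It was at 0.43 ± 0.20 (unadjusted p = 0.0287, adjusted p = 0.0773) in 6x_pfd, per the authors' deposited table, with a 95% interval of 0.04 to 0.81. The estimate for BAM3 is close to those for DPE2 and LSF1, which passed, but its SE was unusually wide: among the 6861 genes with a mean of at least 1000 normalized counts, 96.8% had a smaller one, against 22.7% for BAM1. With fold changes centred on equal group totals, BAM3 was at 0.51 and passed (adjusted p = 0.0296, Wald test). BAM3 overlaps AT4G17085 on the opposite strand, which had a mean of 115 normalized counts against 11723 for BAM3, and AT4G06665, a noncoding RNA gene that is in neither table. In pfd4, BAM1 was at -0.10 ± 0.13 and BAM3 at -0.04 ± 0.13, per the authors' deposited table, and neither passed (adjusted p = 0.774 and 0.917).

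BAM5, a β-amylase outside the chloroplast that is expressed mainly in phloem, had the largest estimate and the lowest level. It was at 1.70 ± 0.27 (adjusted p = 6.8e-09) in 6x_pfd, per the authors' deposited table, with an implied mean of 29.2 normalized counts in WT and 95.1 in 6x_pfd. Per kilobase of transcript and 1000000 counts this is 0.366 in WT and 1.19 in 6x_pfd, on either side of the minimum of 1 RPKM that the name of the table states. BAM5 may therefore have entered the table through its level in 6x_pfd, in which case its direction was set by the filter. It is not in the pfd4 table, so its response there was not analysed here. Of 6 phloem marker genes, 1 rose and 2 fell in 6x_pfd, with a median of -0.03, where 16.9% of all genes tested rose and 16.8% fell. SWEET12, a sucrose exporter, was at 1.02 ± 0.11, the sucrose carrier SUC2 at -0.84 ± 0.09 and the phloem protein gene PP2-A1 at -0.34 ± 0.07, per the authors' deposited table. The summed mean of these markers was 17327 normalized counts in WT and 15870 in 6x_pfd, and their part in the BAM5 value was not tested.

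Across the 9 β-amylase genes, 4 rose in 6x_pfd and 5 did not pass, and without BAM5, for the reason given above, 3 of 8 rose, where 16.9% of all genes did. BAM6 rose by 0.78 ± 0.13 and BAM2, a plastid enzyme, by 0.44 ± 0.12, per the authors' deposited table, alongside BAM1 and BAM5. BAM4, a plastid protein without measurable catalytic activity, was at 0.11 ± 0.15, per the authors' deposited table. BAM7 and BAM8, nuclear proteins that act as transcription factors, were at -0.17 ± 0.10 and 0.03 ± 0.10, per the authors' deposited table. BAM9, a plastid β-amylase-like protein, was at -0.49 ± 0.20 (adjusted p = 0.0523), per the authors' deposited table. In pfd4 none of the 8 measured β-amylase genes passed, where 7.75% of all genes tested did, with values from -0.19 to 0.14. None of the 8 had an unadjusted p below 0.05 there, where 19.0% of all genes tested did. By the test of the difference between the mutants described below, BAM6 was higher in 6x_pfd by 0.83 ± 0.20 (adjusted p = 3.6e-04, Wald test) and BAM2 by 0.52 ± 0.18 (adjusted p = 0.0226).

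Transcripts for maltose export and use followed the same direction in 6x_pfd. MEX1, the maltose exporter of the chloroplast envelope, rose by 0.82 ± 0.09 (adjusted p = 1.2e-17), DPE1 by 0.64 ± 0.12 (adjusted p = 5.6e-07) and DPE2 by 0.43 ± 0.11 (adjusted p = 2.6e-04), per the authors' deposited table. As folds these are 1.76 for MEX1, 1.56 for DPE1 and 1.35 for DPE2. PGLCT, which exports glucose from the same plastids, fell by 0.39 ± 0.07 (adjusted p = 1.9e-06), per the authors' deposited table, in contrast to MEX1. In pfd4, MEX1 was the gene nearest the threshold, at 0.39 ± 0.14 (unadjusted p = 0.0056, adjusted p = 0.0647), while DPE1 was at 0.24 ± 0.15 and DPE2 at 0.11 ± 0.13, per the authors' deposited table. With SEX4, MEX1 makes 2 of 9 genes at an unadjusted p below 0.05 in pfd4, where 19.0% of all genes tested reached it.

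By level, BAM3 stood apart from the other genes, and the rest lay within a range that differed between the experiments. Levels between genes are given as normalized counts per kilobase of the longest RefSeq transcript per 1000000 counts, from implied group means that carry no spread per group, so neighbours in the order cannot be told apart by test. In WT at 7 days BAM3 was at 147, followed by BAM1 at 41.0, DPE2 at 39.9, SEX1 at 39.5 and PWD at 29.6, and then SEX4 at 17.0, DPE1 at 12.4, MEX1 at 8.30, LSF1 at 7.95 and BAM5 at 0.366. The summed level of the 10 genes was 343 in WT and 554 in 6x_pfd, 1.61 times as high, and BAM3 made up 42.8% of it in WT and 35.7% in 6x_pfd. In WT at 14 days BAM3 was at 304 and BAM1 at 72.5, and the other 7 genes measured lay between 4.19 for DPE1 and 15.2 for PWD. The summed level of the 9 genes was 442 in WT and 434 in pfd4, with BAM3 at 68.7% and 68.0% of it. The tables were normalized separately and the WT groups differ in age and light, so their levels are set side by side without a test. On that scale SEX1 was 3.53 times, SEX4 3.24 times, DPE2 3.04 times and DPE1 2.95 times as high in the 7-day WT, while BAM3 was 2.07 times and BAM1 1.77 times as high in the 14-day WT.

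**Figure D2:**
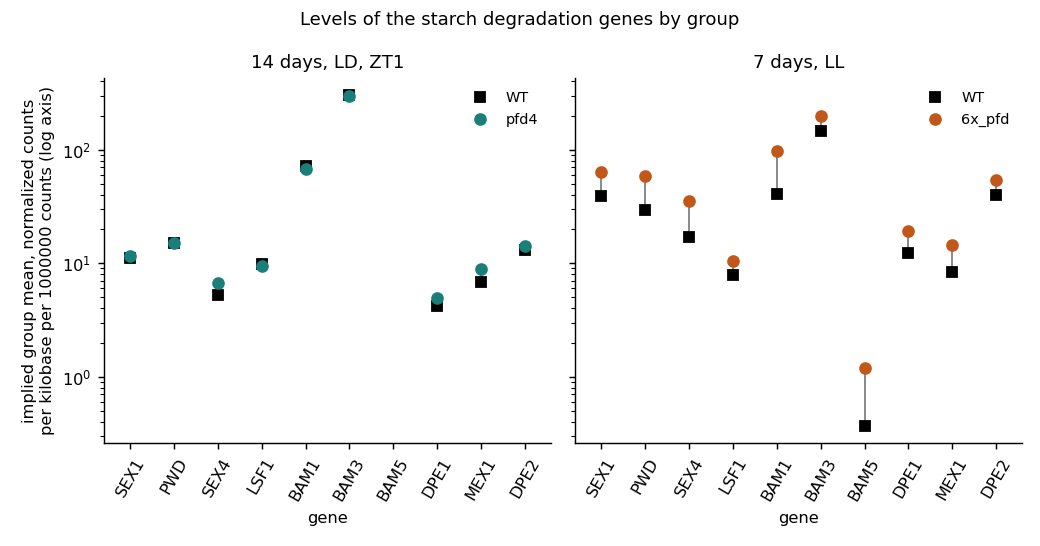
Implied group means of the starch degradation genes as normalized counts per kilobase per 1000000 counts on a log axis, for WT (squares) and mutant (circles) at 14 days on the left and 7 days on the right; a grey line joins the groups of a gene. BAM3 is the highest in each group, at 304 and 147 in WT, and the 6x_pfd circles lie above their WT squares while those of pfd4 lie close to them.

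Upstream sequence was compared because 9 of the 10 genes rose together in 6x_pfd. Without BAM5, whose direction may have been set by the filter, 8 of 9 rose. From the RefSeq annotation of TAIR10.1, the 250 bases before the annotated start of each gene were read, and the authors' build is TAIR10 per the submitters' processing notes. The evening element core AATATCT, a clock-related motif, was present in the windows of PWD, SEX4 and MEX1, 3 of 10, against 2745 of 27443 protein-coding genes, counted on both strands. The G-box CACGTG was present in those of LSF1 and DPE1, 2 of 10 against 6.49%, and the core of the abscisic acid response element ACGTG, which is part of every G-box, in 3 of 10 against 22.9%. The drought element core CCGAC was found in 1 window, that of BAM5, against 12.0%, ACTCAT in 1, that of SEX4, against 12.3%, and TATCCA in 0 of 10 against 13.6%. These matches describe letters and are not binding sites. Among the windows with matches, those of SEX4, LSF1 and MEX1 overlap other annotated genes, so matches there may lie within a neighbouring gene. The sequences of 3 genes are printed, with matches in capitals, chosen among windows that hold no other annotated gene: BAM1, the gene with the smallest p and with no match, at chr3:8640931-8641180 on the plus strand, PWD, with the evening element core read from the opposite strand, at chr5:9261229-9261478 on the plus strand, and DPE1, with both of its G-boxes, at chr5:25928880-25929129 on the minus strand.
BAM1: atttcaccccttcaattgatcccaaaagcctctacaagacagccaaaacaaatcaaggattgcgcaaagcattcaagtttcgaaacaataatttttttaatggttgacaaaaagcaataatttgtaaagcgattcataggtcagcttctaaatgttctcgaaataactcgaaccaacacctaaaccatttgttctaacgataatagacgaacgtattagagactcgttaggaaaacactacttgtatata
PWD: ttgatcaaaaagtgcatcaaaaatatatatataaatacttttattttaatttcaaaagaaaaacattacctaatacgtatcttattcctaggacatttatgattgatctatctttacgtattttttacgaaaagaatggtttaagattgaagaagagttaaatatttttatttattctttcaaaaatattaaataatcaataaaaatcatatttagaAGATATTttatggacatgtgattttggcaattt
DPE1: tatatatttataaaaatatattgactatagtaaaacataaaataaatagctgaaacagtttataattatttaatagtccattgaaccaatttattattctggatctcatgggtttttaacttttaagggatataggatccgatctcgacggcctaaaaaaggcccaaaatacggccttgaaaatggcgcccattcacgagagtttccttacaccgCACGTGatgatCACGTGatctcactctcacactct

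The effects of 6x_pfd and pfd4 on these genes were compared directly, with the difference of their log2 fold changes tested by a Wald test (two-sided) and Benjamini-Hochberg adjustment over 18035 genes. Of the 9 genes in both tables, 6 had a higher fold change in 6x_pfd, where 11.8% of all genes tested were called higher and 12.0% lower (23.8% in all), and 49.6% of those calls were higher, against 62.2% after centring on equal group totals. The difference was 1.36 ± 0.15 for BAM1 (adjusted p = 1.8e-17 by that Wald test), 0.98 ± 0.16 for PWD (adjusted p = 4.3e-08), 0.71 ± 0.21 for SEX4 (adjusted p = 0.00576) and 0.65 ± 0.19 for SEX1 (adjusted p = 0.00567). It was smaller for LSF1, at 0.45 ± 0.17 (adjusted p = 0.0375 by that Wald test), and for MEX1, at 0.43 ± 0.17 (adjusted p = 0.0459). BAM3 at 0.47 with a 95% interval of 0.01 to 0.93, DPE1 at 0.41 with 0.03 to 0.78 and DPE2 at 0.33 with -0.01 to 0.66 did not pass. Genotype, age and light differ together between the experiments and cannot be told apart in this difference, and the labels give a time of day for the 14-day groups alone.

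**Figure D3:**
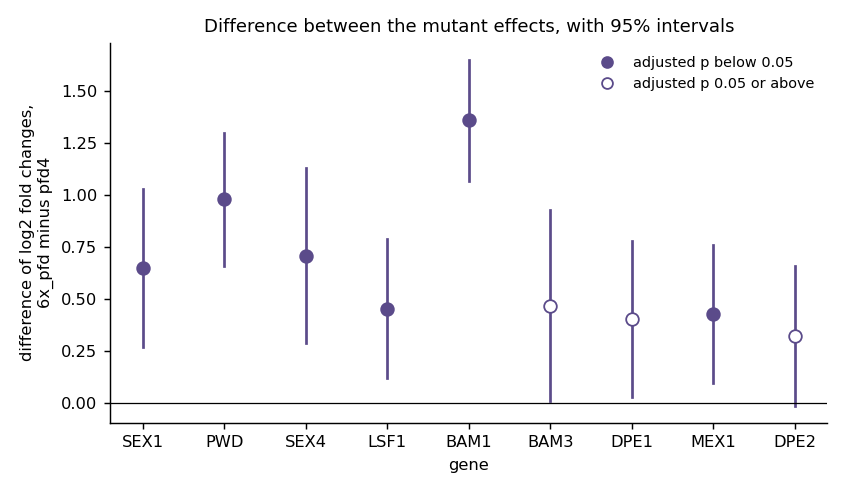
Difference of log2 fold changes, 6x_pfd minus pfd4, for the 9 starch degradation genes in both tables; bars are 95% intervals and filled points passed an adjusted p of 0.05. The 9 differences lie between 0.33 for DPE2 and 1.36 for BAM1.

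The wider list of starch degradation genes was mixed in 6x_pfd. Of 17 measured, 8 rose, 2 fell and 7 did not pass, with a median of 0.19. For this and the following lists, the shares over all genes are 16.9% higher and 16.8% lower in 6x_pfd and 3.94% higher and 3.81% lower in pfd4. ISA3, the debranching enzyme that removes branch points during degradation, rose by 1.18 ± 0.12 (adjusted p = 1.3e-21), per the authors' deposited table. GWD2 and BAM6, given above, and LESV, a granule-bound protein, at 0.70 ± 0.12 (adjusted p = 2.0e-08), per the authors' deposited table, came next by p. The limit dextrinase LDA, also a debranching enzyme, was at 0.42 ± 0.14 and the cytosolic phosphorylase PHS2 at 0.57 ± 0.11, per the authors' deposited table, and both rose. The plastid enzymes AMY3 (0.19 ± 0.14) and PHS1 (0.16 ± 0.11), an α-amylase and a phosphorylase, did not pass, per the authors' deposited table. ESV1, a protein of the granule related to LESV, fell by 0.43 ± 0.10 (adjusted p = 1.0e-04), per the authors' deposited table. In pfd4, GWD2 was the single gene of the 17 that passed, and the median was -0.05.

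Of 25 starch synthesis genes measured in 6x_pfd, 8 rose, 4 fell and 13 did not pass, with a median of 0.08, where 33.6% of all genes were called. Those with the smallest p were the branching enzyme gene BE3 (1.07 ± 0.08), the ADP-glucose pyrophosphorylase large subunit genes APL3 (2.30 ± 0.18) and APL4 (1.48 ± 0.17), and GPT2, which imports glucose 6-phosphate into plastids (2.25 ± 0.23), per the authors' deposited table. GPT2 had a mean of 196 normalized counts and was not measured in pfd4. Whether the minimum of 1 RPKM shaped its value was not tested. APL1, the main large subunit of leaves, was at -0.38 ± 0.14 and fell, per the authors' deposited table. In pfd4, 2 of 24 were called, near the 7.75% of all genes: PTST1, which brings the amylose synthase GBSS1 to the granule, was at 0.56 ± 0.16 (adjusted p = 0.00984) and GBSS1 at -0.45 ± 0.12 (adjusted p = 0.00735), per the authors' deposited table.

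Genes listed under cytosolic glucose and sucrose metabolism rose in 11 of 15 cases in 6x_pfd and fell in 1, with a median of 0.56. The sucrose phosphate synthase genes SPSA1 (0.79 ± 0.06) and SPSA2 (1.19 ± 0.13), the hexokinase gene HXK2 (0.86 ± 0.08) and the phosphoglucomutase gene PGM3 (0.57 ± 0.07) led the list by p, per the authors' deposited table. TPT, which exports triose phosphate from chloroplasts by day, was the one that fell, by 0.47 ± 0.10, per the authors' deposited table. In pfd4, 1 of 14 passed and it fell, SPSA2 at -0.43 ± 0.12 (adjusted p = 0.00934), per the authors' deposited table, and the median was -0.12.

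**Figure D4:**
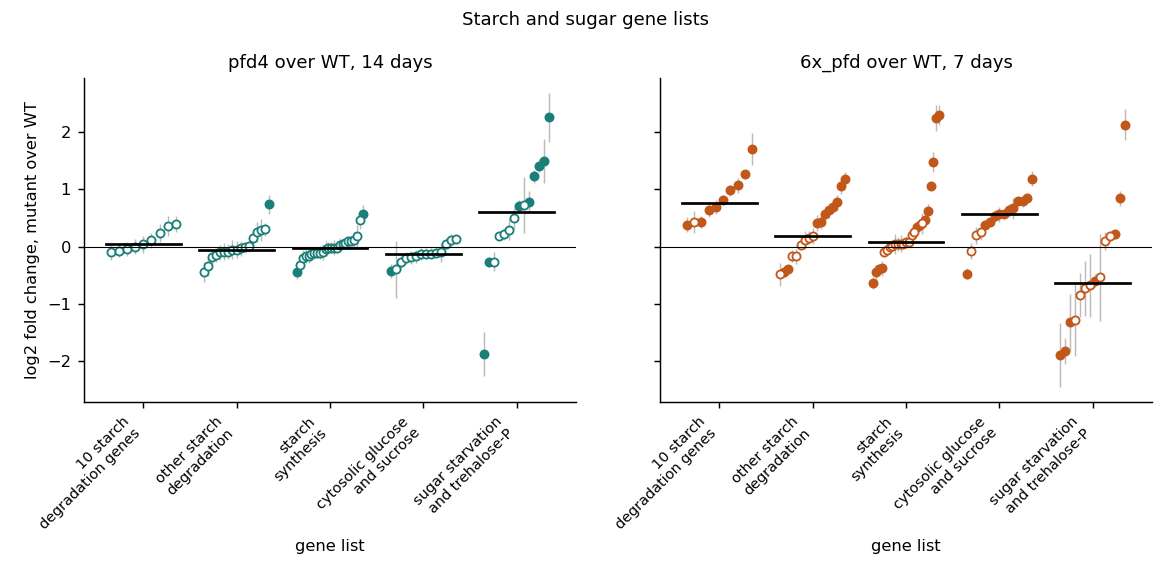
Log2 fold change, mutant over WT, of each measured gene of 5 lists in pfd4 (left) and 6x_pfd (right); grey bars are 1 SE, filled points passed an adjusted p of 0.05 and black lines are list medians. In 6x_pfd the medians are 0.76 for the 10 starch degradation genes, 0.19 for other starch degradation, 0.08 for starch synthesis, 0.56 for cytosolic glucose and sucrose metabolism and -0.64 for sugar starvation and trehalose phosphate signalling.

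Several regulators with known links to these genes also changed in 6x_pfd. The abscisic acid response factor genes ABF2 (0.85 ± 0.11) and ABF3 (0.76 ± 0.11) and QQS, whose loss alters leaf starch content (2.20 ± 0.27), rose, per the authors' deposited table. The clock genes CCA1 (-0.95 ± 0.10) and LHY (-0.66 ± 0.11) and the thioredoxin gene TRXF1 (-0.46 ± 0.10), whose product reduces chloroplast enzymes, fell, per the authors' deposited table. The cold regulators CBF1, CBF2 and CBF3 were not in either table. NTRC, also on this list, was at -0.13 ± 0.14 in 6x_pfd and did not pass, per the authors' deposited table. None of the 7 regulators measured passed in pfd4, where 7.75% of all genes tested did. In pfd4, 3 had an unadjusted p below 0.05, as did 19.0% of all genes tested. They were CCA1 (-0.26 ± 0.10), LHY (-0.22 ± 0.09) and ABF2 (-0.27 ± 0.11), per the authors' deposited table. CCA1 and LHY passed the threshold in 6x_pfd alone, and the experiments also differ in age and light. The part of CCA1 and LHY in the starch degradation values was not tested.

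Marker genes of the tissues in a seedling were present in both tables. All 6 leaf mesophyll, 6 guard cell and 6 root markers were measured. In 6x_pfd, 2 of the 6 mesophyll markers fell and none rose, the light-harvesting genes LHCB1.3 (-1.03 ± 0.10) and LHCB2.1 (-1.76 ± 0.16), per the authors' deposited table, and the summed level of the list went from 1462713 to 1162246 normalized counts. Of the guard cell markers, relevant to BAM1, OST1 rose (0.41 ± 0.08) and MYB60 (-0.58 ± 0.12) and KAT1 (-0.34 ± 0.14) fell in 6x_pfd, per the authors' deposited table, and the summed level was 2630 in WT and 2475 in 6x_pfd. The root markers EXPA7 (0.60 ± 0.16) and RHD6 (0.60 ± 0.19) rose and TIP2-3 (-1.36 ± 0.15) and PYK10 (-0.23 ± 0.08) fell in 6x_pfd, per the authors' deposited table. In pfd4, 0 of 6 mesophyll markers passed, and MYB60 of the guard cell list (0.45 ± 0.12) and SWEET12 of the phloem list (0.79 ± 0.14) rose, per the authors' deposited table. Of the 6 root markers, 5 lay below 0 in pfd4, with a median of -0.69, and CASP2 was the one that passed (-0.66 ± 0.16), per the authors' deposited table. CASP1 was at -0.39 ± 0.14, TIP2-3 at -0.73 ± 0.27, EXPA7 at -0.71 ± 0.29 and RHD6 at -0.85 ± 0.32 in pfd4, none past the threshold, per the authors' deposited table. The number at an unadjusted p below 0.05 in pfd4 was 5 of 6 for root, 3 of 6 for guard cell, 2 of 6 for phloem and 1 of 6 for mesophyll markers, where 19.0% of all genes reached it. The summed level of the root list, most of it from PYK10, was 57508 normalized counts in WT and 62798 in pfd4. The part of these cell types in the starch degradation values was not tested.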

How the data were processed

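Stranded mRNA libraries of 12 seedling samples were made with a plant RNA kit and a stranded mRNA kit, per the labels' protocols. The submitters' processing notes name build TAIR10 and the tools cutadapt, HISAT2, HTSeq and DESeq2 that the authors ran, without versions. Per the file headers, each row of a deposited table gives the mean normalized count of a gene (a signal over all libraries of the comparison), its log2 fold change and SE, a Wald score and its p-value, raw and adjusted. The table names state a minimum of 1 RPKM, and how the authors applied it was not stated. A shorter deposited list for each comparison repeats log2 fold changes and adjusted p-values. It holds 1186 genes for 6x_pfd, of 19397 measured, and 198 for pfd4, of 18366. Of the 10 starch degradation genes, 3 (BAM1, SEX4 and BAM5) are in it for 6x_pfd and 0 for pfd4, where BAM5 was not measured. The limit given above for BAM5 holds here too.

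The tables hold means over libraries, so no count model was fitted: calls are the authors', at an adjusted p below 0.05, and depth per library is unknown. The p-values weigh a fold change against the spread between 3 samples a group, which the series' design text calls biological. Computed here with Python 3.11.15, pandas 2.3.3 and scipy 1.17.1 were intervals (95%, normal), implied group means, levels per kilobase, the Wald test of the difference and the alternatives. That test was also run on fold changes simulated with the deposited SEs, which cannot show whether those SEs are right. Names and lengths come from the RefSeq annotation of TAIR10.1, which matched all 125 listed loci. The genes, lists and motifs were chosen with earlier results of these data known. The rule names all 10 genes and up to 4 called genes with the smallest adjusted p of each list; other β-amylases, list genes against their list's direction or not past the threshold, genes of related function (LSF2, PHS2, LDA, APL1, ESV1, PGLCT, TPT, TRXF1, LHY), CBF genes, CA1 and the genes named in the additional observations beyond it were chosen after their values were seen.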

Additional observations from a re-analysis of the deposited data

Results flagged for a closer look

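The effect on 6 of 9 starch degradation genes differed between the mutants by the Wald test of the difference (adjusted p below 0.05 over 18035 genes). Of all genes tested, 23.8% were called, 11.8% higher in 6x_pfd and 12.0% lower. The log2 fold change in 6x_pfd minus that in pfd4 was 1.36 for BAM1, 0.98 for PWD, 0.71 for SEX4, 0.65 for SEX1, 0.45 for LSF1 and 0.43 for MEX1. The experiments also differ in age and light, which cannot be told apart from genotype here.

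Of 14 sugar starvation and trehalose phosphate signalling genes, 12 passed the same test, as did 23.8% of all genes tested, and BGAL4 (adjusted p = 0.62) and KIN10 (adjusted p = 0.975) did not. The difference was 4.00 for DIN2, 1.11 for TPS5 and 0.49 for TPS1, which were higher in 6x_pfd. It was -0.82 for TPS10, -1.51 for KMD4, -1.55 for TPS9, -2.09 for TPS8, -2.32 for BZIP63, -2.55 for TPS11, -2.62 for DIN1, -2.78 for DIN10 and -2.79 for DIN6.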

How the results depend on the processing

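Of the 10 starch degradation genes, 9 were called higher in 6x_pfd at an adjusted p of 0.05 and of 0.01, after centring on the median of all genes, and among genes with a mean of at least 1 per 1000000 counts. The number was 10 after centring on equal group totals, which shifts 6x_pfd fold changes up by 0.0783. Those totals are sums of the implied group means over all genes measured, since depth per library is unknown. In a test against a 25% change the number was 6, and BAM3, DPE1, DPE2 and LSF1 did not pass. It was 3 when a log2 change of 1 or more was also asked for (BAM1, SEX4 and BAM5). Each of these numbers includes BAM5, whose direction may have been set by the filter. Without BAM5, 8 of 9 genes were called at an adjusted p of 0.05, and 2 with a log2 change of at least 1. No starch degradation gene was called in pfd4 under these 6 alternatives. The adjusted p of 0.01, the added log2 change and the 25% test are stricter than the main call, so they could add no calls. No gene changed sign in any comparison, but the centrings alone alter a fold change. Over all genes, the pfd4 calls were 1423 as deposited, 835 at an adjusted p of 0.01, 198 with a change of at least 1 and 165 in the test against 25%; the 6x_pfd calls were 6519, and 1186 and 1779 under the last 2 of these. Centring on equal totals raised the share of higher calls in 6x_pfd from 50.2% to 66.1%, and for the difference between the mutants from 49.6% to 62.2%. For that difference, 4 of 9 genes passed at an adjusted p of 0.01, without LSF1 and MEX1, and 7 after centring on equal totals, with DPE1 added (adjusted p = 0.0485).

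No paired analysis was possible because the deposited tables hold no values per library, and leaving out each replicate was not run for the same reason. The design's count model was not run either. The SE is the single record of precision, and BAM5, at a mean of 62.2 normalized counts, had the widest of the 10 genes.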

Other observations

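Of 14 sugar starvation and trehalose phosphate signalling genes measured, 6 rose and 2 fell in pfd4, with a median of 0.60, and 3 rose and 4 fell in 6x_pfd, with a median of -0.64. In pfd4 the trehalose phosphate synthase-like genes TPS8 (1.42 ± 0.12), TPS11 (1.23 ± 0.11) and TPS9 (0.70 ± 0.11) and the asparagine synthetase gene DIN6 (2.26 ± 0.42) rose, per the authors' deposited table, while none of the 9 starch degradation genes passed there. In 6x_pfd BZIP63, a transcription factor gene linked to starch breakdown and energy signalling (-1.83 ± 0.23), and TPS10 (-0.60 ± 0.11) fell, and DIN2 (2.13 ± 0.28) and TPS5 (0.84 ± 0.13) rose, per the authors' deposited table. DIN2 fell in pfd4 (-1.87 ± 0.38), per the authors' deposited table, against its rise in 6x_pfd.

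Several genes of that list had very wide SEs in 6x_pfd for their level. TPS8 was at -0.68 ± 0.55 with a mean of 3408 normalized counts, DIN10 at -1.28 ± 0.63 with 7842 and TPS11 at -1.32 ± 0.49 with 1791, per the authors' deposited table. Among the 6861 genes with a mean of at least 1000 normalized counts, whose median SE was 0.0888, 99.3%, 99.4% and 99.1% had a smaller SE than these. In pfd4 the SE was 0.12 for TPS8 and 0.11 for TPS11. BAM3 and BAM9 had SEs wider than 96.8% and 97.2% of the same genes in 6x_pfd. Which library carries this spread cannot be seen in the tables.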
